A study of Mus musculus with 12 samples.

Results

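The genes described here make the machinery that copies DNA in S phase, 48 genes chosen by symbol from the 19057 genes that the arrays name. They are the 12 origin licensing genes Orc1, Orc2, Orc6, Cdc6, Cdt1, Gmnn and Mcm2 to Mcm7, and the 6 genes of helicase activation Mcm10, Cdc45 and Gins1 to Gins4. A further 11 are genes of the clamp, its loader, single-strand binding and lagging-strand joining (Pcna, Rfc1 to Rfc5, Rpa1 to Rpa3, Fen1 and Lig1). The polymerases and primase are 8 genes (Pola1, Pola2, Pold1, Pold2, Pole, Pole2, Prim1 and Prim2), and nucleotide supply is 5 (Rrm1, Rrm2, Tyms, Tk1 and Dut). The last are 3 of chromatin behind the fork (Uhrf1, Chaf1a and Chaf1b) and 3 of control at the G1 to S boundary (Ccne1, Ccne2 and E2f1). They are read by 91 of 45281 probes. Probes entered the fit when their detection p was under 0.05 on 3 or more of the 12 arrays. This held for 71 of the 91, and these measure 45 of the 48 genes. Orc2, which belongs to the origin recognition complex, had no such probe, and neither had Pola1 and Pole2, subunits of polymerases alpha and epsilon. Members that reached the filter could do so through a single group, so the 45 are not all members.

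OP9 cells, a mouse stromal line labelled as B6C3F1 op/op, from newborn calvaria and as MSCs, received vehicle or imatinib, a drug that blocks several tyrosine kinases, among them ABL, KIT and the PDGF receptors. Each of 4 groups has 3 arrays: vehicle, labelled 0 h, and 3 lengths of imatinib treatment, labelled 32, 64 and 96 h. All 4 groups are the same line with the op/op genotype. No vehicle group is labelled for the later times, so drug and time in culture cannot be told apart, and the series' design text can also be read as vehicle kept for those times. Nothing in the labels tells whether samples of a group came from different cultures, so every p-value here rests on a spread that may be technical.

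Before a chromosome can be copied, the origin recognition complex, Cdc6 and Cdt1 load the MCM helicase onto DNA in G1, a step called licensing. Cdc45, GINS and Mcm10 then switch the helicase on, and polymerases, held on DNA by the Pcna clamp, copy both strands from nucleotides made by ribonucleotide reductase, thymidylate synthase and thymidine kinase. Many of these genes are transcribed by E2F factors when a cell leaves G1, so that their RNA is high in dividing cultures. Imatinib is known to block signals of the PDGF receptors, which drive division of stromal cells.

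Each array detected 16162 to 17332 probes, and arrays of the same group correlated at r = 0.988 to 0.991. Precision is limited by having 3 arrays a group, and log2 fold changes had a median SE of 0.15. Imatinib 32 h replicate 3 and 64 h replicate 3 stood apart from the others on the third principal component (scores of -20.4 and 20.2, with 7.07% of the variance). Where such an array belongs to the groups compared, calls lost without it are given with their values without it. Of 13 stromal markers with a probe, 10 or 11 were detected on all arrays of each group, while Thy1 was detected on none and Nt5e on none from 32 h on. Of 8 B lymphoid markers, Pax5, Rag1, Blnk, Vpreb1 and Cd79b were detected on no array and Ebf1 on all, with a rise of 0.58 ± 0.15 on the log2 scale at 96 h (SE, limma adjusted p = 0.0195). Of 7 leukocyte and myeloid markers, Ptprc, Fcgr1 and Itgam were detected on no array, Lyz2 on all, Cd14 on 11 and Csf1r on 10. Lyz2 rose by 1.47 ± 0.15 at 64 h and by 1.93 ± 0.15 at 96 h (SE, limma adjusted p = 9.68e-06 and 3.5e-07), and Cd14 fell by 0.96 at 96 h (SE 0.21, adjusted p = 0.00617). The summed intensity of these 7 ranged from 224 to 280 on the vehicle arrays and from 355 to 408 on those of 96 h, with 261 to 282 on the 32 h arrays and 339 to 350 on the 64 h arrays. Of 6 endothelial markers Cdh5, Tek, Tie1 and Emcn were detected on no array and none on all arrays of a group, and of 6 epithelial markers Krt8 was detected on every array. For 7 adipocyte markers the summed intensity was 6128 to 6585 on the vehicle arrays and 14456 to 15627 on the 96 h arrays. At 32 h it was 9227 to 10062, and at 64 h it was 13644 to 15224. Of 5 adipocyte markers measured, 3 rose against vehicle at each time by limma (Adipoq, Lpl and Cd36) and 0 fell. Pparg, detected on all arrays, gave no call against vehicle. Fabp4 was detected on no array of vehicle, 32 h or 96 h, and Plin1 on none of vehicle or 32 h. The part of these markers in the results was not tested.

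At 32 h and 64 h of imatinib most replication genes lay below vehicle. The licensing genes Cdt1, Mcm2 and Mcm5, the thymidine kinase gene Tk1 and the DNA ligase gene Lig1 fell at both times, by 1.5-fold to 2.17-fold. For Tk1 and Lig1 both calls were lost when the probes of each gene were averaged. Pold1 and Uhrf1 also fell at both times, by 1.32-fold to 1.49-fold. The Pold1 calls were lost in 8 and 10 of 20 alternative fits, and the 32 h call of Uhrf1 in 9. At 96 h the median of the genes was near vehicle again. Relative to the vehicle mean, the median of the 45 genes was -0.03 to 0.04 on the log2 scale on the 3 vehicle arrays and -0.05 to 0.03 on the 3 arrays of 96 h. On the 32 h arrays it was -0.30 to -0.24, and on the 64 h arrays -0.27 to -0.25. The 6 arrays of 32 h and 64 h thus lay below all 6 arrays of vehicle and 96 h. The mean was lowest at 32 h for 20 of the 45 genes and at 64 h for 16, against 19.1% and 21.6% of all 10211 genes measured. It was lowest at 96 h for 5 and in vehicle for 4. The labels put vehicle and 96 h under array label 1, and 32 h and 64 h under array label 2. The array label and the group therefore cannot be told apart in the comparisons of 32 h or 64 h with vehicle or with 96 h, whereas 96 h against vehicle and 64 h against 32 h lie within a label. In bulk RNA, fewer cells in S phase and less of these RNAs in each cell cannot be told apart either.

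**Figure D1:**
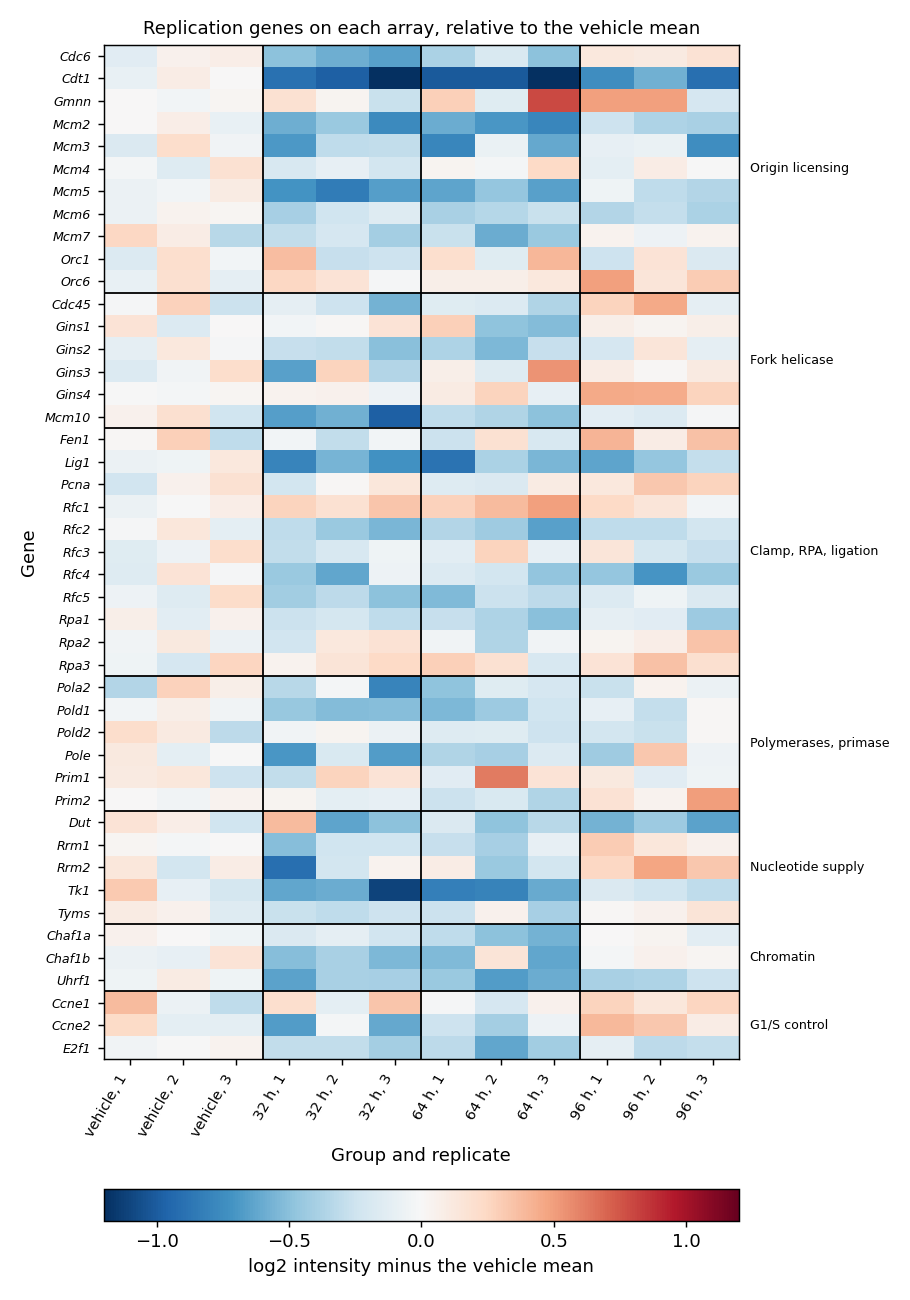
Normalized log2 intensity of each of the 45 measured genes on each of the 12 arrays, minus the gene's vehicle mean, with genes in rows by role and arrays in columns by group and replicate. Blue cells, below vehicle, fill much of the 32 h and 64 h columns.

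In a limma fit across all kept probes, with Benjamini-Hochberg adjustment and a threshold of 0.05, 11 of the 45 genes (24.4%) differed among the 4 groups by the moderated F test, beside 13% of all genes. They were Cdt1, Mcm5, Cdc6, Mcm2, Tk1, Mcm10, Lig1, Uhrf1, Pold1, Rrm1 and Chaf1a. At 32 h against vehicle 9 of 45 fell (20%) and 0 rose, beside 2.08% of all genes that fell and 2.09% that rose. The 9 were Cdt1, Mcm5, Mcm10, Mcm2, Cdc6, Tk1, Lig1, Pold1 and Uhrf1. At an unadjusted p under 0.05 the counts were 19 lower and 1 higher, beside 8.41% and 8.22% of all genes. At 64 h 10 fell (22.2%) and 1 rose, beside 6.08% and 6.33% of all genes. Those lower were Cdt1, Mcm2, Uhrf1, Mcm5, Tk1, Lig1, Chaf1a, Rfc2, E2f1 and Pold1, and Rfc1 was higher. At 96 h, within array label 1, 2 fell (4.44%), Cdt1 and Rfc4, and 1 rose, Gins4. Of all genes 7.37% fell and 7.51% rose there. The comparisons with vehicle share the same 3 vehicle arrays. Without imatinib 32 h replicate 3 the number lower at 32 h was 3 (Cdt1, Mcm5 and Mcm10), and without vehicle replicate 2 or 3 it was 5. Without vehicle replicate 1 or 2 the number lower at 64 h was 6. Without background correction the numbers lower were 16 at 64 h and 7 at 96 h, and the latter was 6 with a stricter filter on detection and 5 with the probes of a gene averaged.

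Against vehicle the 45 genes had median log2 changes of -0.30, -0.28 and -0.03 at the 3 times, beside medians of 0.00 over all genes in each comparison. Of the 45, 37 (82.2%) lay below vehicle at 32 h, 35 (77.8%) at 64 h and 25 (55.6%) at 96 h, beside 49.6% of all genes each time. Between 32 h and 64 h, within array label 2, 0 of 45 fell and 0 rose by the limma test, beside 0.578% and 0.656% of all genes. At an unadjusted p under 0.05, 1 was lower and 1 higher, beside 5.55% and 6.03% of all genes. The smallest adjusted p was 0.334. From 64 h to 96 h, across the labels, 0 fell and 0 rose beside 0.137% and 0.118% of all genes. There 17 were higher and 1 lower at an unadjusted p under 0.05, beside 5.92% and 5.06% of all genes. The smallest adjusted p was 0.116, for Cdc6. From 32 h to 96 h, also across the labels, 5 rose (11.1%) and 0 fell, beside 2.81% and 2.46% of all genes. Those 5 were Cdc6, Mcm10, Mcm5, Ccne2 and Rrm1. At an unadjusted p under 0.05, 18 were higher and 0 lower, beside 9.49% and 8.72% of all genes. Leaving out any array of 32 h or 96 h brought the 5 down to between 1 and 3.

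**Figure D2:**
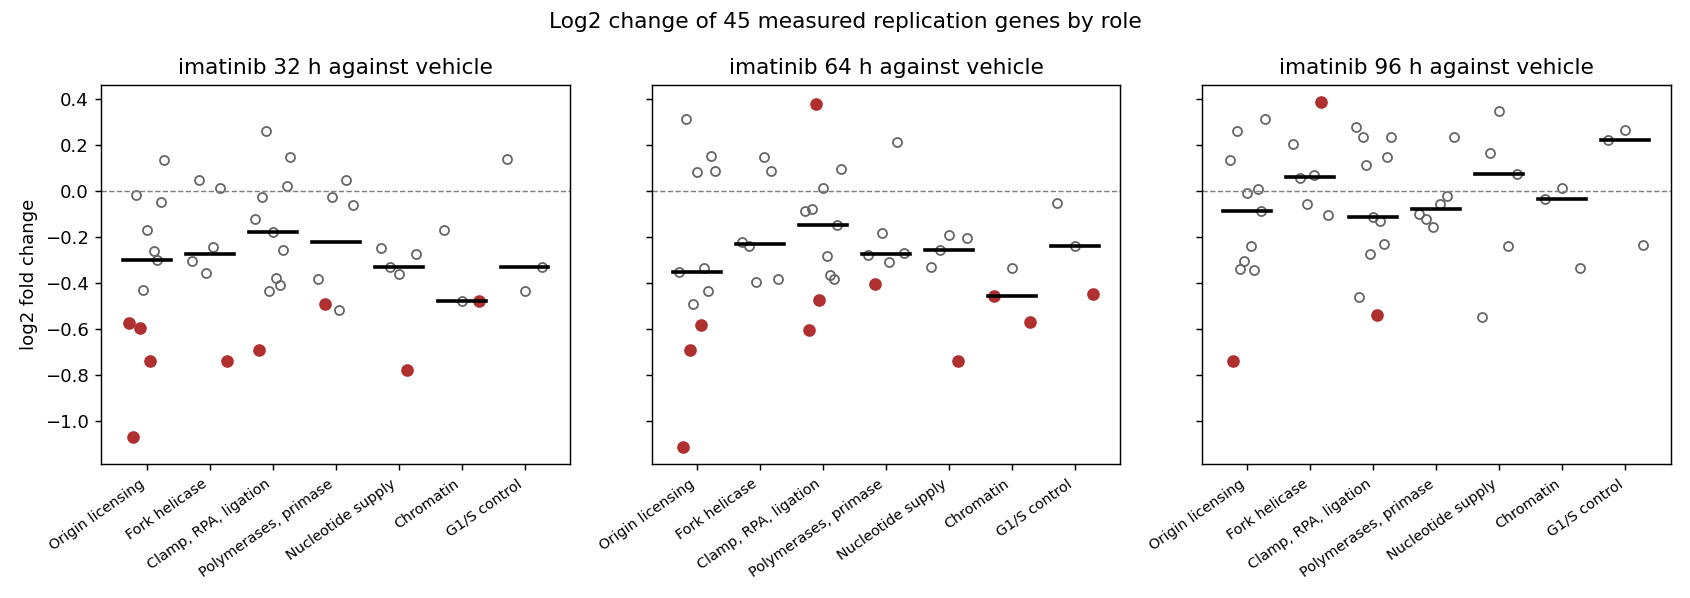
Log2 fold change of each measured replication gene at 32 h, 64 h and 96 h of imatinib against vehicle, by role, with bars at the median of each role and red points for genes that passed the limma test. Most points lie below 0 at 32 h and 64 h, with medians over all 45 genes of -0.30 and -0.28, and around 0 at 96 h, with a median of -0.03.

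The 6 genes with the smallest adjusted p in the F test were Cdt1, Mcm5, Cdc6, Mcm2, Tk1 and Mcm10, and their promoter windows follow. They are shown because E2F factors are known to bind many promoters of this class. The windows run from 250 bases before to 50 bases after a start in the RefSeq annotation of GRCm38.p6, and 39 of the 48 genes were matched. That start need not be the outermost one of the gene. The Cdc6 window lies inside the annotated gene, which begins at chr11:98907709. Ccne2, Gins1, Gins2, Gins4, Gmnn, Mcm4, Pole, Prim2 and Rfc2 have no entry in the table used here. Capitals mark the E2F motifs TTTCCCGC, TTTCGCGC, TTTGCCGC and TTTGGCGC, searched on both strands.
Cdt1, chr8:122567765-122568064, plus strand: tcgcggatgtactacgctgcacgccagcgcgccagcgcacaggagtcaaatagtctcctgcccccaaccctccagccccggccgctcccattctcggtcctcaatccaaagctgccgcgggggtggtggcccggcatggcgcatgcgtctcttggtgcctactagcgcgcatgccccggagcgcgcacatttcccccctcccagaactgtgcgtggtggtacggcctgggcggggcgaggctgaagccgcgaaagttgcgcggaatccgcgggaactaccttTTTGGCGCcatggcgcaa
Mcm5, chr8:75109259-75109558, plus strand: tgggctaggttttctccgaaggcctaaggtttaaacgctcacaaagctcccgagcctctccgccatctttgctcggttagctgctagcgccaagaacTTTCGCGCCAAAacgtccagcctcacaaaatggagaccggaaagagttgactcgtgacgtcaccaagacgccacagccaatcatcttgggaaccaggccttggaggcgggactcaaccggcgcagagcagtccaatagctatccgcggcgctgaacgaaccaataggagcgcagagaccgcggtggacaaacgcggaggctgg
Cdc6, chr11:98907901-98908200, plus strand: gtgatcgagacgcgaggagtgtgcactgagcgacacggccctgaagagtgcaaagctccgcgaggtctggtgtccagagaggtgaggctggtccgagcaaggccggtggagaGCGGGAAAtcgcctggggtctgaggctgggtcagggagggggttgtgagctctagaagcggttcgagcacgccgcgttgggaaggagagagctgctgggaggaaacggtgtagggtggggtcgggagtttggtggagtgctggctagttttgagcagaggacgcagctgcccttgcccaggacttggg
Mcm2, chr6:88898731-88899030, minus strand: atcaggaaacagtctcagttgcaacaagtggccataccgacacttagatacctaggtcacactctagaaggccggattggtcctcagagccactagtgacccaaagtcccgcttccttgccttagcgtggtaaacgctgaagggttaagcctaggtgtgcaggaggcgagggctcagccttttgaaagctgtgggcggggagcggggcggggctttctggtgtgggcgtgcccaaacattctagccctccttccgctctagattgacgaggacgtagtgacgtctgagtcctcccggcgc
Tk1, chr11:117825965-117826264, minus strand: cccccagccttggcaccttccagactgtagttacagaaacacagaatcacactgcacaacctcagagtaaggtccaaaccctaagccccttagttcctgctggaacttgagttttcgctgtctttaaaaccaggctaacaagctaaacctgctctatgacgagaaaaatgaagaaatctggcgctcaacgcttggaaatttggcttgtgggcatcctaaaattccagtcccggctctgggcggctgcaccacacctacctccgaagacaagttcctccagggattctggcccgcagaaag
Mcm10, chr2:5012742-5013041, minus strand: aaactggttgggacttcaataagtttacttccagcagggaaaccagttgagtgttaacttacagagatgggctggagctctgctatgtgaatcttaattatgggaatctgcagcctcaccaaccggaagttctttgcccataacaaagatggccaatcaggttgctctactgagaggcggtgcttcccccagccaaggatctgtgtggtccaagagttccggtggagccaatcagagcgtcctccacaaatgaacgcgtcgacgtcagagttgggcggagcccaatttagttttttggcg
Cdt1 and Cdc6 each hold 1 motif and Mcm5 holds 2 that overlap on opposite strands, while Mcm2, Tk1 and Mcm10 hold no whole motif in the window. The Mcm10 window ends in tttggcg, the beginning of TTTGGCGC, so a motif across its end could not be seen. Over the 39 genes, 14 (35.9%) hold at least 1 motif in a window, beside 704 of all 27025 genes in the table (2.6%). They include 7 of 10 licensing genes, 1 of 3 helicase activation genes and 2 of 10 clamp and joining genes. They also include 3 of 6 polymerase genes and 1 of 3 chromatin genes, but 0 of 5 nucleotide supply genes and 0 of 2 genes of G1 to S control. The motif was present in 6 of the 11 genes that fell at 32 h or 64 h and have a window (54.5%) and in 6 of the 25 other measured genes (24%). Among the former, Uhrf1 and Lig1 hold it only in the window of a further start. The latter include Mcm6, whose standing probe gave no call. The difference between these shares was not tested. A match describes the letters of the window and is not a measured binding site.

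Of the 11 measured genes of origin licensing, 4 fell at 32 h (Cdt1, Mcm5, Mcm2 and Cdc6), 3 at 64 h (Cdt1, Mcm2 and Mcm5) and 1 at 96 h (Cdt1). These are 36.4%, 27.3% and 9.09%, beside 2.08%, 6.08% and 7.37% of all genes that fell. By the same test 0 rose, and the median log2 changes were -0.30, -0.35 and -0.09. Cdt1, which brings the MCM helicase to the origin, had normalized log2 intensities of 8.47, 8.65 and 8.57 on the vehicle arrays, 7.66, 7.58 and 7.23 at 32 h, 7.56, 7.55 and 7.23 at 64 h and 7.81, 7.99 and 7.66 at 96 h. Its 9 imatinib values lie below all 3 vehicle values. The log2 fold change was -1.07 ± 0.15 (SE) at 32 h, a level 2.1-fold lower, with an adjusted p of 0.000585 by limma. It was -1.11 ± 0.15 (SE), 2.17-fold lower, at 64 h (limma adjusted p = 0.000115). At 96 h, within the same array label as vehicle, it was -0.74 ± 0.15 (SE), 1.67-fold lower (limma adjusted p = 0.00266). Cdt1 was thus the member that fell in all 3 comparisons with vehicle, and it held its calls in every alternative tried. Cdc6, the ATPase that works with Cdt1 in loading, read 6.49, 6.68 and 6.70 on the vehicle arrays, 6.13, 6.04 and 5.97 at 32 h, 6.24, 6.44 and 6.13 at 64 h and 6.75, 6.73 and 6.80 at 96 h. All 32 h and 64 h arrays lay below all vehicle arrays, and the 3 arrays of 96 h lay above them. Cdc6 fell by 0.57 on the log2 scale at 32 h (SE 0.12, limma adjusted p = 0.0136), a call lost without vehicle replicate 2 or 3 or without 32 h replicate 3 (-0.54, adjusted p = 0.0603). Its differences of -0.35 ± 0.12 at 64 h and 0.14 ± 0.12 at 96 h did not pass the test (adjusted p = 0.074 and 0.525). Between 32 h and 96 h it rose by 0.71 ± 0.12 (SE), 1.64-fold, with a limma adjusted p of 0.00251.

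The 6 subunits of the MCM helicase, the ring that unwinds the DNA ahead of the fork, are read by probes of their own. Mcm2 values were 8.16, 8.24 and 8.06 on the vehicle arrays, 7.57, 7.72 and 7.39 at 32 h, 7.56, 7.46 and 7.37 at 64 h and 7.91, 7.78 and 7.76 at 96 h, with every imatinib array below every vehicle array. It was 1.51-fold lower at 32 h (-0.60 ± 0.12 log2, limma adjusted p = 0.0116) and 1.62-fold lower at 64 h (-0.69 ± 0.12, adjusted p = 0.00135). The 32 h call was lost without vehicle replicate 2 or without 32 h replicate 3 (-0.51, adjusted p = 0.0603). The difference of -0.34 ± 0.12 at 96 h had an adjusted p of 0.0822. For Mcm5 the arrays gave 9.15, 9.20 and 9.33 on the vehicle arrays, 8.51, 8.39 and 8.57 at 32 h, 8.60, 8.76 and 8.57 at 64 h and 9.17, 8.92 and 8.87 at 96 h. The 32 h and 64 h values lay below both the vehicle and the 96 h values, which overlapped. Mcm5 was 1.67-fold lower than vehicle at 32 h (-0.74 ± 0.12 log2, limma adjusted p = 0.0029) and 1.5-fold lower at 64 h (-0.58 ± 0.12, adjusted p = 0.00547). From 32 h to 96 h it rose by 0.50 ± 0.12 (adjusted p = 0.0294), a call lost in 6 of 20 alternatives, among them without 32 h replicate 3 (0.54, adjusted p = 0.05595). Mcm4, a further subunit, read 10.64, 10.51 and 10.85 on the vehicle arrays, 10.48, 10.57 and 10.44 at 32 h, 10.69, 10.65 and 10.90 at 64 h and 10.55, 10.75 and 10.66 at 96 h. Its groups overlapped in each comparison with vehicle, with log2 differences of -0.17 ± 0.13, 0.08 ± 0.13 and -0.01 ± 0.13, each with a limma adjusted p of at least 0.563. Mcm6 was read by 4 kept probes, all below vehicle at every time. The probe that stands for the gene, the kept probe with the highest mean, lay at -0.26 ± 0.11, -0.34 ± 0.11 and -0.34 ± 0.11 (SE, limma adjusted p = 0.256, 0.066 and 0.056). Another Mcm6 probe, detected on all arrays, passed at each time with -0.80 ± 0.15 at 32 h, -0.64 ± 0.15 at 64 h and -0.49 ± 0.15 at 96 h (SE, limma adjusted p = 0.0084, 0.0131 and 0.0470). Mcm7 lay at -0.30 ± 0.15 at 32 h and -0.44 ± 0.15 at 64 h without passing (limma adjusted p = 0.341 and 0.0736). Mcm3, detected on 10 of the 12 arrays, lay at -0.43 ± 0.21 and -0.49 ± 0.21 (adjusted p = 0.336 and 0.151).

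The remaining licensing genes gave no call against vehicle. Orc6, a subunit of the origin recognition complex, lay at 0.13 ± 0.13, 0.09 ± 0.13 and 0.31 ± 0.13 on the log2 scale at 32, 64 and 96 h (limma adjusted p = 0.684, 0.728 and 0.138). Gmnn, which makes geminin, the inhibitor of Cdt1, was detected on 10 arrays and lay at -0.02 ± 0.22, 0.31 ± 0.22 and 0.26 ± 0.22 (adjusted p = 0.981, 0.419 and 0.516). Orc1, which makes the ATPase subunit that binds origins, was detected on 4 arrays, so its level is mostly a bound.

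Among the 6 genes that switch the helicase on, 1 fell at 32 h (16.7%), 0 at 64 h and 0 at 96 h (limma). Of all genes 2.08%, 6.08% and 7.37% fell. At 96 h 1 rose (16.7%), beside 7.51% of all genes. The median log2 changes were -0.27, -0.23 and 0.06. Mcm10, which activates the loaded helicase, had values of 7.34, 7.47 and 7.05 on the vehicle arrays, 6.63, 6.71 and 6.30 at 32 h, 6.99, 6.92 and 6.80 at 64 h and 7.16, 7.12 and 7.27 at 96 h. The 32 h arrays were the lowest and did not overlap any other group. The fall at 32 h was 1.67-fold (-0.74 ± 0.14 log2, SE, limma adjusted p = 0.00818), and the difference of -0.38 ± 0.14 at 64 h did not pass (adjusted p = 0.0978). From 32 h to 96 h Mcm10 rose 1.55-fold (0.64 ± 0.14, adjusted p = 0.0174), a call lost in 4 of 20 alternatives, among them without 32 h replicate 3 (0.51, adjusted p = 0.08235). Gins4 encodes a subunit of GINS, which together with Cdc45 and the MCM ring forms the active helicase. Gins4 read 9.71, 9.69 and 9.74 on the vehicle arrays, 9.76, 9.77 and 9.66 at 32 h, 9.81, 9.98 and 9.62 at 64 h and 10.18, 10.16 and 9.98 at 96 h, and its 96 h values lay above all vehicle values. At 96 h it was 1.31-fold above vehicle (0.39 ± 0.12 log2, SE, limma adjusted p = 0.0459). This call was lost in 10 of 21 alternatives, among them without 32 h replicate 3. Gins2, a further GINS subunit, was read by 3 probes, each detected on all arrays. The probe that stands for it lay at -0.36 ± 0.13 and -0.39 ± 0.13 (SE) at 32 h and 64 h and did not pass (limma adjusted p = 0.175 and 0.0669). Another fell by 0.71 and 0.83 (SE 0.14 for both, adjusted p = 0.0084 and 0.000903). The last lay at -0.50 ± 0.21 at 32 h (adjusted p = 0.247) and passed at 64 h with -0.71 ± 0.21 (adjusted p = 0.0400). At 96 h the same probes were at -0.05, -0.40 and -0.32, and none passed. Cdc45, the partner of GINS, lay at -0.30 ± 0.17 and -0.22 ± 0.17, Gins1 at 0.05 ± 0.18 and -0.24 ± 0.18 and Gins3 at -0.24 ± 0.21 and 0.15 ± 0.21 at 32 h and 64 h, with limma adjusted p of at least 0.431.

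**Figure D3:**
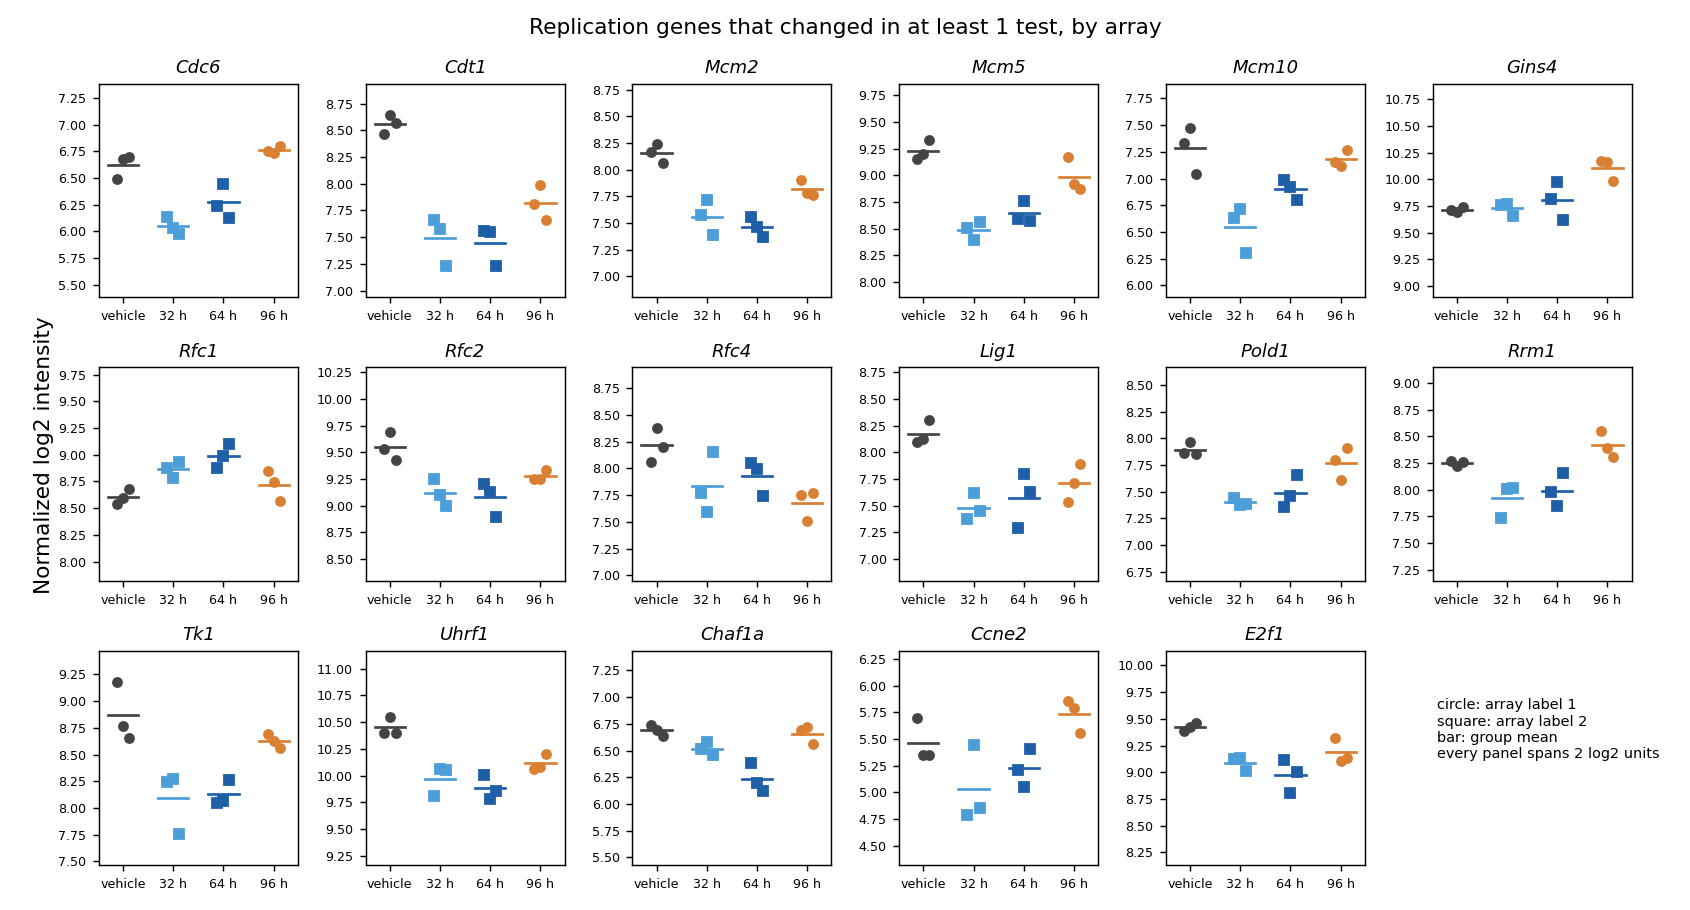
Normalized log2 intensity on each array of the 17 replication genes that passed at least 1 pairwise limma test, in panels of equal height. Bars mark group means, circles array label 1 and squares array label 2. The Cdt1 points lie at 8.47 to 8.65 in vehicle and at 7.23 to 7.99 with imatinib, while Cdc6, Mcm5, Mcm10 and Rrm1 are low at 32 h and higher at 96 h.

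The clamp, its loader and the factors that join the lagging strand gave few calls. Of 11 measured genes 1 fell at 32 h (Lig1), 2 at 64 h (Lig1 and Rfc2) and 1 at 96 h (Rfc4). These are 9.09%, 18.2% and 9.09%, beside 2.08%, 6.08% and 7.37% of all genes that fell. Rfc1 alone rose, at 64 h (9.09%), beside 6.33% of all genes. The median log2 changes were -0.18, -0.15 and -0.11. Lig1, the ligase that seals lagging-strand fragments, read 8.10, 8.12 and 8.30 on the vehicle arrays, 7.38, 7.62 and 7.45 at 32 h, 7.29, 7.80 and 7.63 at 64 h and 7.54, 7.71 and 7.89 at 96 h. Every imatinib array lay below every vehicle array. The level was 1.62-fold lower at 32 h (-0.69 ± 0.15 log2, SE, limma adjusted p = 0.0154) and 1.52-fold lower at 64 h (-0.60 ± 0.15, adjusted p = 0.0141). At 96 h the difference of -0.46 ± 0.15 did not pass (adjusted p = 0.0507). The 3 other Lig1 probes were detected on 3, 10 and 10 arrays and lay between -0.26 and -0.08 at 32 h with no call. Averaged over all its probes, Lig1 lost both calls (limma adjusted p = 0.293 and 0.442). Without 32 h replicate 3 its difference at 32 h was -0.68 (adjusted p = 0.0568). Over all alternatives its adjusted p ran from 0.00104 to 0.293 at 32 h and from 0.00154 to 0.442 at 64 h. Rfc1, the large subunit of the loader that opens the Pcna ring, read 8.54, 8.60 and 8.68 on the vehicle arrays, 8.88, 8.79 and 8.94 at 32 h, 8.88, 8.99 and 9.10 at 64 h and 8.84, 8.75 and 8.57 at 96 h. Its 64 h values lay above vehicle, 1.3-fold (0.38 ± 0.12 log2, SE, limma adjusted p = 0.0495). That call was lost in 14 of 20 alternatives, among them without 32 h replicate 3 and without 64 h replicate 3 (0.33, adjusted p = 0.157, for the latter). Rfc2, a small subunit of the same loader, read 9.53, 9.69 and 9.43 on the vehicle arrays, 9.25, 9.10 and 9.001 at 32 h, 9.20, 9.13 and 8.90 at 64 h and 9.25, 9.25 and 9.33 at 96 h. It was 1.39-fold lower at 64 h (-0.47 ± 0.12, adjusted p = 0.022), and all 4 of its probes lay below vehicle at each time. This 64 h call was lost without vehicle replicate 1 or 2 or without 64 h replicate 3 (-0.39, adjusted p = 0.0969). At 32 h the standing probe did not pass (adjusted p = 0.0715), but another, detected on all arrays, did (-0.45 ± 0.11, SE, limma adjusted p = 0.0395). The adjusted p of the other probes at 64 h were 0.0384, 0.0938 and 0.111. Rfc4, also a loader subunit, gave 8.06, 8.38 and 8.20 on the vehicle arrays, 7.77, 7.59 and 8.16 at 32 h, 8.06, 7.998 and 7.75 at 64 h and 7.75, 7.51 and 7.77 at 96 h. Its 96 h arrays lay below all vehicle arrays, 1.45-fold (-0.54 ± 0.16 log2, SE, limma adjusted p = 0.0333), while its other probe lay at -0.10 ± 0.22 at 96 h (adjusted p = 0.832). The call of Rfc4 was lost in 7 of 21 alternatives.

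Pcna, the clamp itself and a common marker of dividing cells, lay at -0.02 ± 0.14 (SE) at 32 h, -0.08 ± 0.14 at 64 h and 0.24 ± 0.14 at 96 h relative to vehicle, with limma adjusted p of 0.96, 0.786 and 0.326. Rpa1, the large subunit of the single-strand binding protein, read 11.62, 11.43 and 11.60 on the vehicle arrays, 11.29, 11.34 and 11.25 at 32 h, 11.27, 11.17 and 11.05 at 64 h and 11.44, 11.41 and 11.11 at 96 h. The 32 h and 64 h values lay below all vehicle values, with differences of -0.26 ± 0.12 and -0.38 ± 0.12 log2 that did not pass (limma adjusted p = 0.337 and 0.0602). Rpa2 and Rpa3, the smaller subunits, and Fen1, the flap nuclease, lay between -0.15 and 0.15 at 32 h and 64 h, with no call. Of the loader's other small subunits Rfc5 lay at -0.41 ± 0.13 and -0.37 ± 0.13 (adjusted p = 0.11 and 0.0846), and Rfc3 at -0.18 ± 0.15 and 0.01 ± 0.15.

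Of the 6 polymerase and primase genes measured, 1 fell at 32 h and 64 h (16.7%) and 0 at 96 h. Of all genes 2.08%, 6.08% and 7.37% fell. The median log2 changes of the 6 genes were -0.22, -0.27 and -0.08. Pold1, the catalytic subunit of polymerase delta, which copies the lagging strand, read 7.87, 7.97 and 7.85 on the vehicle arrays, 7.44, 7.37 and 7.39 at 32 h, 7.36, 7.46 and 7.65 at 64 h and 7.80, 7.61 and 7.90 at 96 h. Its 32 h and 64 h arrays lay below all vehicle arrays. It was 1.41-fold lower at 32 h (-0.49 ± 0.12 log2, SE, limma adjusted p = 0.0338) and 1.32-fold lower at 64 h (-0.41 ± 0.12, adjusted p = 0.0418). These calls were lost in 8 and 10 of 20 alternatives. Both were lost without 32 h replicate 3, where the 32 h difference was -0.49 (adjusted p = 0.0965). Pole, the catalytic subunit of polymerase epsilon on the leading strand, lay at -0.52 ± 0.18 and -0.31 ± 0.18 without a call (adjusted p = 0.155 and 0.32). Pola2, a subunit of the priming polymerase alpha, lay at -0.38 ± 0.19 and -0.28 ± 0.19 (adjusted p = 0.362 and 0.414). Pold2, a further subunit of polymerase delta, and the primase genes Prim1 and Prim2 lay between -0.06 and 0.05 at 32 h. The probes of Prim2 differed in sign at 64 h, with -0.27 ± 0.13 for the standing probe and 0.37 ± 0.23 for the other.

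By their standing probes, all 5 nucleotide supply genes lay below vehicle at 32 h and 64 h. Of all genes 49.6% did at each time. The differences were 0.25 to 0.78 and 0.19 to 0.74 on the log2 scale. Tk1 alone passed at each time (20%), beside 2.08% and 6.08% of all genes that fell. At 32 h 2 of 5 kept probes of Tyms, 1 of 2 of Tk1 and 1 of 2 of Dut lay below vehicle. At 64 h these were 4 of 5, 2 of 2 and 1 of 2, and Rrm1 had 1 of 2. At 96 h 2 of the 5 genes lay below vehicle by their standing probes and 0 passed, beside 7.37% of all genes that fell. Tk1, the thymidine kinase of the salvage pathway, which is known to peak in S phase, read 9.18, 8.77 and 8.65 on the vehicle arrays, 8.25, 8.27 and 7.75 at 32 h, 8.05, 8.07 and 8.27 at 64 h and 8.69, 8.63 and 8.56 at 96 h. The 32 h and 64 h arrays lay below all arrays of vehicle and 96 h. Tk1 was 1.72-fold lower at 32 h (-0.78 ± 0.16 log2, SE, limma adjusted p = 0.014) and 1.67-fold lower at 64 h (-0.74 ± 0.16, adjusted p = 0.00744). At 96 h the difference was -0.24 ± 0.16 (adjusted p = 0.399). The second Tk1 probe, detected on 6 arrays, lay at 0.27 ± 0.20 and -0.17 ± 0.20 with no call. Averaged over both probes, Tk1 lost both calls, with -0.26 at 32 h and -0.45 at 64 h (limma adjusted p = 0.387 and 0.051). The 32 h call was also lost without vehicle replicate 1 (-0.62, adjusted p = 0.0678) or without 32 h replicate 3 (-0.61, adjusted p = 0.0665). Rrm1, the large subunit of ribonucleotide reductase, which makes deoxyribonucleotides, read 8.27, 8.23 and 8.25 on the vehicle arrays, 7.74, 8.01 and 8.02 at 32 h, 7.97, 7.85 and 8.15 at 64 h and 8.55, 8.39 and 8.31 at 96 h. Its 3 arrays at 96 h lay above all others. It rose 1.41-fold from 32 h to 96 h (0.50 ± 0.13 log2, SE, limma adjusted p = 0.0357). This call was lost in 10 of 20 alternatives, among them with its probes averaged and without 32 h replicate 3 (0.54, adjusted p = 0.0612). The other kept Rrm1 probe, detected on all arrays, gave 0.30 ± 0.15 for the same rise (adjusted p = 0.33). At 64 h against vehicle that probe lay at 0.18 ± 0.15 and the standing probe at -0.26 ± 0.13 (SE, limma adjusted p = 0.518 and 0.22). Rrm2, the small subunit, was 0.71 ± 0.21 higher at 96 h than at 32 h by its standing probe (adjusted p = 0.0666). Another of its 3 probes passed at 0.49 ± 0.13 (adjusted p = 0.0394), and the last, detected on all arrays, lay at -0.07 ± 0.16 (adjusted p = 0.866). Tyms, thymidylate synthase, had values of 8.92, 8.88 and 8.67 on the vehicle arrays, 8.56, 8.52 and 8.58 at 32 h, 8.56, 8.87 and 8.42 at 64 h and 8.84, 8.88 and 8.98 at 96 h, which overlapped vehicle at 64 h and 96 h. It gave no call (limma adjusted p = 0.328, 0.364 and 0.788). Dut, which removes dUTP, lay at -0.55 ± 0.21 at 96 h by its standing probe (SE, adjusted p = 0.107) and at -0.07 ± 0.12 by the other (adjusted p = 0.774), and both probes were detected on all arrays.

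**Figure D4:**
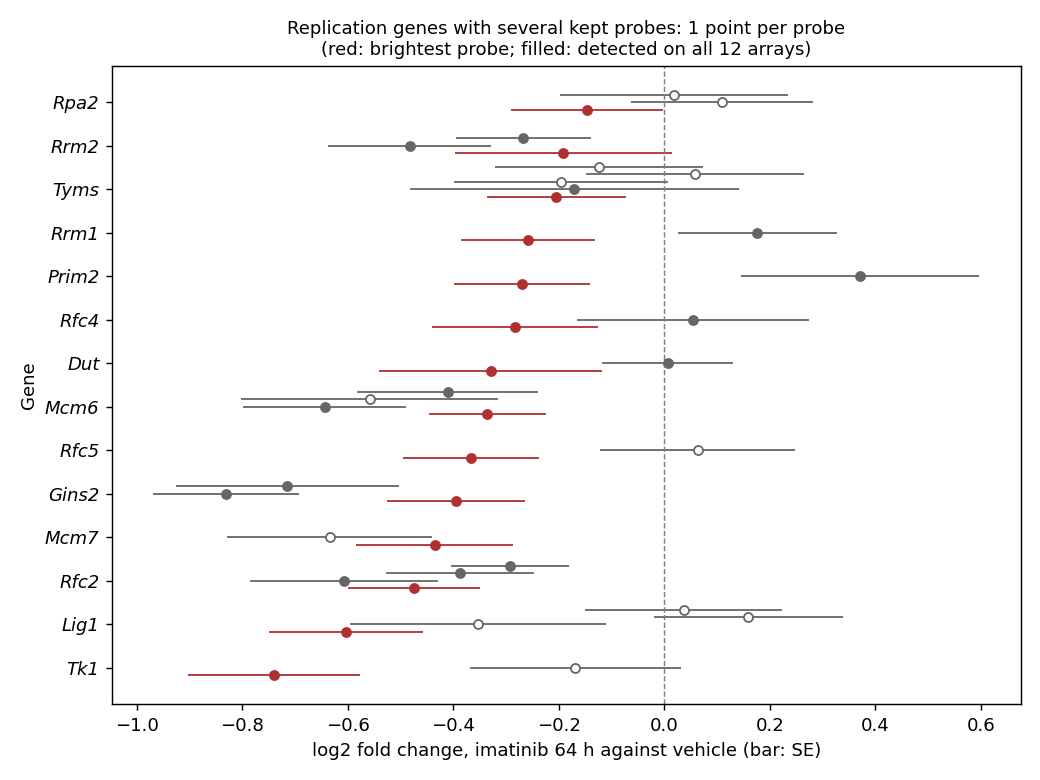
Log2 fold change at 64 h of imatinib against vehicle for each kept probe of the 14 genes with several, with bars of 1 SE, red for the probe with the highest mean and filled for probes detected on all 12 arrays. All probes of Gins2, Mcm6, Mcm7, Rfc2, Rrm2 and Tk1 lie below 0, and those of 8 genes lie on both sides of it.

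Of the 45 genes, 31 rest on 1 probe. Among the 14 with several, all probes lay below vehicle in 7 at 32 h, 6 at 64 h and 6 at 96 h, and in 8 the probes had both signs at 64 h.

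The 3 genes that rebuild chromatin behind the fork had median log2 changes of -0.48 and -0.46 at 32 h and 64 h. Of them 1 fell at 32 h, 2 at 64 h and 0 at 96 h, beside 2.08%, 6.08% and 7.37% of all genes. Uhrf1, which brings DNA methylation to newly copied strands, read 10.40, 10.55 and 10.40 on the vehicle arrays, 9.81, 10.06 and 10.05 at 32 h, 10.005, 9.78 and 9.85 at 64 h and 10.06, 10.08 and 10.20 at 96 h. All 9 imatinib arrays lay below the 3 vehicle arrays. It was 1.39-fold lower at 32 h (-0.48 ± 0.12 log2, SE, limma adjusted p = 0.0382) and 1.49-fold lower at 64 h (-0.57 ± 0.12, adjusted p = 0.00546). The 32 h call was lost in 9 of 20 alternatives, among them without 32 h replicate 3 (-0.52, adjusted p = 0.0716). The difference of -0.34 ± 0.12 at 96 h did not pass (adjusted p = 0.0826). Chaf1a, the large subunit of the histone chaperone CAF-1, read 6.74, 6.69 and 6.63 on the vehicle arrays, 6.52, 6.58 and 6.45 at 32 h, 6.39, 6.19 and 6.12 at 64 h and 6.69, 6.72 and 6.56 at 96 h. The 64 h arrays were the lowest, 1.37-fold below vehicle (-0.46 ± 0.11, adjusted p = 0.0174), and the 96 h arrays overlapped vehicle. The call was lost in 5 of 20 alternatives, among them without 64 h replicate 3 (-0.40, adjusted p = 0.0725). Its partner Chaf1b lay at -0.48 ± 0.17 at 32 h and -0.33 ± 0.17 at 64 h without a call (adjusted p = 0.157 and 0.242).

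At the G1 to S boundary, E2f1, a transcription factor of the S phase programme, read 9.38, 9.42 and 9.46 on the vehicle arrays, 9.12, 9.13 and 9.01 at 32 h, 9.11, 8.80 and 9.01 at 64 h and 9.32, 9.11 and 9.13 at 96 h. Its 9 imatinib values lay below its 3 vehicle values. The 64 h difference passed at 1.36-fold (-0.45 ± 0.12 log2, SE, limma adjusted p = 0.0229), while -0.33 ± 0.12 at 32 h and -0.24 ± 0.12 at 96 h did not (adjusted p = 0.16 and 0.232). The 64 h call was lost in 6 of 20 alternatives, among them without 64 h replicate 3 (-0.46, adjusted p = 0.0501). Ccne2, which encodes a cyclin E that activates CDK2, gave 5.69, 5.35 and 5.35 on the vehicle arrays, 4.79, 5.44 and 4.85 at 32 h, 5.21, 5.05 and 5.41 at 64 h and 5.85, 5.79 and 5.55 at 96 h and was detected on 2 of the 3 arrays at 32 h. It rose from 32 h to 96 h by 0.70 ± 0.17 (SE, adjusted p = 0.032), and its differences from vehicle did not pass. That call was lost in 7 of 20 alternatives. Without background correction the rise was 0.23 (adjusted p = 0.0621), and without 32 h replicate 3 it was 0.62 (adjusted p = 0.121). Ccne1, the other cyclin E gene, lay at 0.14 ± 0.17, -0.05 ± 0.17 and 0.22 ± 0.17 against vehicle (adjusted p = 0.753, 0.892 and 0.456).

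Other genes of the same pathways, 86 in 5 lists of which 72 were measured, gave calls at all 3 times. At 32 h 4 of 72 fell (5.56%) and 1 rose (1.39%), beside 2.08% and 2.09% of all genes. At 64 h 7 fell (9.72%) and 2 rose (2.78%), beside 6.08% and 6.33%, and at 96 h again 7 fell and 2 rose, beside 7.37% and 7.51%. The median log2 changes were -0.02, -0.04 and 0.02. The 20 measured genes at the fork outside the 48 held 3 of the falls at 32 h and 4 at 64 h, and the 10 of licensing and firing gave 0 calls in these comparisons (limma). Timeless, a fork protection factor, fell by 0.79, 0.84 and 0.58 at 32, 64 and 96 h (SE 0.14, limma adjusted p = 0.00381, 0.00077 and 0.00893). Top2a, the topoisomerase of dividing cells, fell by 0.68 and 0.65 at 32 h and 64 h (SE 0.16, adjusted p = 0.0255 and 0.0142) and lay at -0.24 at 96 h (adjusted p = 0.383). Pold4, the smallest subunit of polymerase delta, fell by 0.51, 0.98 and 0.91 (SE 0.11, adjusted p = 0.0138, 1.9e-05 and 2.66e-05). Ccnd1, cyclin D1, which drives cells through G1 with CDK4 and CDK6, fell by 0.52, 1.05 and 0.98 (SE 0.12, adjusted p = 0.0217, 2.79e-05 and 3.53e-05). Pold4 and Ccnd1 were further below vehicle at 96 h than at 32 h, and this difference passed too (-0.40 and -0.46, adjusted p = 0.045 and 0.0392). Dnmt1, the methyltransferase that Uhrf1 guides, fell by 0.46 at 64 h (SE 0.13, adjusted p = 0.0357). Rbbp7, a histone-binding protein, fell by 0.66 at 64 h and 0.40 at 96 h (SE 0.12, adjusted p = 0.00173 and 0.0337). Samhd1, which breaks down deoxyribonucleotides, rose by 0.77, 0.80 and 0.93 (SE 0.15, adjusted p = 0.0075, 0.00191 and 0.000376).

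Genes of G2 and mitosis, 28 listed and 21 measured, serve as a comparison from later in the cell cycle. At 32 h 6 of 21 fell (28.6%), at 64 h 3 (14.3%) and at 96 h 0 by limma, beside 2.08%, 6.08% and 7.37% of all genes, and 0 rose. The median log2 changes were -0.39, -0.34 and 0.02. Bub1b, a spindle checkpoint kinase, fell by 0.62 at 32 h (SE 0.12, adjusted p = 0.00936) and by 0.48 at 64 h (adjusted p = 0.017). Birc5, survivin, fell by 0.59 and 0.66 (SE 0.12, adjusted p = 0.0122 and 0.00205). From 32 h to 96 h 6 of the 21 rose (28.6%, beside 2.81% of all genes), among them Kif11, the spindle motor, by 0.66 ± 0.13 (SE, adjusted p = 0.00975) and Prc1, the midzone crosslinker, by 0.63 ± 0.12 (adjusted p = 0.00637). The difference between the replication and the mitosis genes was not tested.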

How the data were processed

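RNA of OP9 cells was read on 12 Illumina BeadChip arrays, 3 per group. The deposited raw table holds a linear signal intensity for every probe and, beside it, a detection p-value, per the file headers. The authors deposited a table of normalized intensity values too. The submitters' processing notes name limma and the sources used here give no settings. On the log2 scale these deposited values lay within 0.0193 of the ones used here.

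Background correction, an offset of 16, quantile normalization and log2 were applied with neqc (limma 3.58.1, R 4.3.3). Probes with detection p under 0.05 on at least 3 of 12 arrays were kept (18897), and a gene was its kept probe with the highest mean (10211 genes). Gene names come from the platform annotation, where 34885 probes list 1 symbol, 18 several and 10378 none. Means of the 4 groups were fitted on all 12 arrays (8 residual degrees of freedom), with 6 pairwise comparisons and a moderated F test, adjusted by Benjamini-Hochberg over kept probes. Genes that rose, fell or changed had an adjusted p under 0.05. Values on every array are given for every gene that passed a test and for the gene with the highest mean in each role; the other members are given by their changes. The 48 genes and all lists were chosen with earlier results of these data known. The fit was run on simulated data with independent noise, a check of the code that does not measure how reliable the calls here are. Same-numbered samples deviated from their group means with correlations of -0.02 to 0.05, 0 of 18 over 0.1, so the numbers were not taken to pair the samples. The alternatives tried are named with their values in the closing section. The strict filter among them asked for detection p under 0.01 on the 3 arrays of some group. Promoter windows come from RefSeq (GRCm38.p6). Figures were drawn with matplotlib 3.10.9 in Python 3.11.15.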

Additional observations from a re-analysis of the deposited data

Results flagged for a closer look

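Levels differed between the imatinib groups of 32 h and 96 h, by the limma test of that difference, for 5 replication genes. Cdc6 was higher at 96 h than at 32 h by 0.71 on the log2 scale (adjusted p = 0.00251), Mcm5 by 0.50 (adjusted p = 0.0294), Mcm10 by 0.64 (adjusted p = 0.0174), Rrm1 by 0.50 (adjusted p = 0.0357) and Ccne2 by 0.70 (adjusted p = 0.0320). All 5 were higher on 3 of 3 arrays of 96 h than on every array of 32 h. The 5 were picked by the test on these same arrays, so this separation adds no support. The 32 h arrays carry array label 2 and the 96 h arrays array label 1, so time and array label cannot be told apart in these differences. No vehicle group is labelled for these times, so length of treatment and time in culture cannot be told apart either. The Cdc6 difference passed in every alternative tried, while those of Mcm5, Mcm10, Rrm1 and Ccne2 were lost in 6, 4, 10 and 7 of 20, and that of Ccne2 was 0.23 without background correction. Groups of 3 arrays are too small for a test of single outlying arrays.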

How the results depend on the processing

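Of 28 calls for single genes, 9 held under every alternative tried (Cdt1 in its 3 comparisons with vehicle, Mcm5 at 32 h and 64 h, Mcm2 and Uhrf1 at 64 h, Mcm10 at 32 h, and Cdc6 from 32 h to 96 h), 19 were lost in at least 1, of which 18 with an array left out, and 0 reversed. Over the alternatives the 45 genes had median log2 changes between -0.33 and -0.17 at 32 h, between -0.31 and -0.16 at 64 h, and between -0.06 and -0.002 at 96 h. Without background correction 16 genes were lower at 64 h, 7 lower and 2 higher at 96 h against vehicle, 2 higher from 64 h to 96 h, 9 higher from 32 h to 96 h, and 20 differed among the groups. At 96 h against vehicle the number lower was 6 with the strict filter and 5 with all probes averaged per gene, and the number higher was 0 with each array label on its own. At 64 h the number higher, Rfc1 alone, was 0 with median scaling and 0 with the replicate number as a block. The block moved no other count by over 1.5 times, and neither did leaving out the filter or starting from the deposited values. Of 12 samples, 7 correlated best with their own number. Without both arrays numbered 3 of 32 h and 64 h, 3 genes were lower at 32 h, 0 higher at 64 h and 2 higher from 32 h to 96 h. With each array left out, the counts ran from 3 to 10 lower at 32 h, 6 to 11 lower and 0 to 1 higher at 64 h, 1 to 3 lower and 0 to 1 higher at 96 h, 1 to 6 higher from 32 h to 96 h and 6 to 10 differing among the groups. The lowest counts came without imatinib 32 h replicate 3 at 32 h (3), without vehicle replicate 1 or 2 at 64 h (6) and among the groups (6), without vehicle replicate 2 or 3 or 96 h replicate 1 or 2 at 96 h (1), and without 96 h replicate 1 from 32 h to 96 h (1). Among the groups it was 7 without vehicle replicate 3, and from 32 h to 96 h 2 or 3 without any other array of those groups. The cause of these changes was not tested.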
